A study of Mus musculus with 6 samples.

Results

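The 46 genes described here encode collagens, basement membrane proteins, other structural matrix proteins and the enzymes that crosslink collagen. They were listed by name, and 44 of the 46 were measured by a probe set that the platform annotation assigns to a single gene, among 18193 genes measured in all. Fbn1 was not named by any probe set in that annotation, and Loxl2 was listed there only together with another gene, so neither is given a value. RNA came from white adipose tissue of C57Bl6 female mice aged 6 months, 3 wild-type (WT) animals and 3 animals homozygous for loss of Ksr2 (KSR2-/-, here knockout). Ksr2 encodes kinase suppressor of Ras 2, a scaffold of the Raf-MEK-ERK cascade. Total RNA of each mouse went onto its own Affymetrix array, so n = 3 animals in each group. The sources used here do not give the fat depot, the deleted part of Ksr2 or the litters of the animals, and p-values below measure the spread between these animals.

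Fat tissue is held together by an extracellular matrix made largely by fibroblast-like stromal cells and by the adipocytes themselves. Collagens I, III and V assemble into fibrils, collagen VI forms beaded filaments around adipocytes, and each adipocyte rests in a basement membrane of collagen IV, laminins, nidogens and perlecan. Newly made collagen chains are hydroxylated on lysine by the Plod enzymes and folded with the chaperone encoded by Serpinh1, and lysyl oxidases crosslink the assembled fibres outside the cell. Values below are log2 of the deposited intensity, where a difference of 1 is a 2-fold change, and the level of one gene is not compared with that of another because probe sets differ in brightness. Values per array are listed as animals 1, 2 and 3 of the group, wild type before knockout.

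Most matrix genes measured higher in knockout fat, but no single one passed the test across all genes. Of the 44 genes 38 were higher and 6 lower, against 44.4% of all genes higher, and the median difference was 0.61 log2 against −0.04 for all genes. At an unadjusted limma p under 0.05, 17 were higher and 0 lower, where 6.71% of all genes were higher and 5.38% lower at that level. In 15 genes all 3 knockout arrays lay above all 3 wild-type arrays, as they did in 7.72% of all genes, and in 0 of the 44 they lay below, against 8.56%. After Benjamini-Hochberg adjustment over all genes 0 of the 44 passed limma at 0.05, and 1 of 18193 genes (0.0055%) passed, with adjusted p for the 44 between 0.194 and 0.996. The median standard error of a difference was 0.27 log2 for the 44 genes and 0.22 for all genes.

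**Figure D1:**
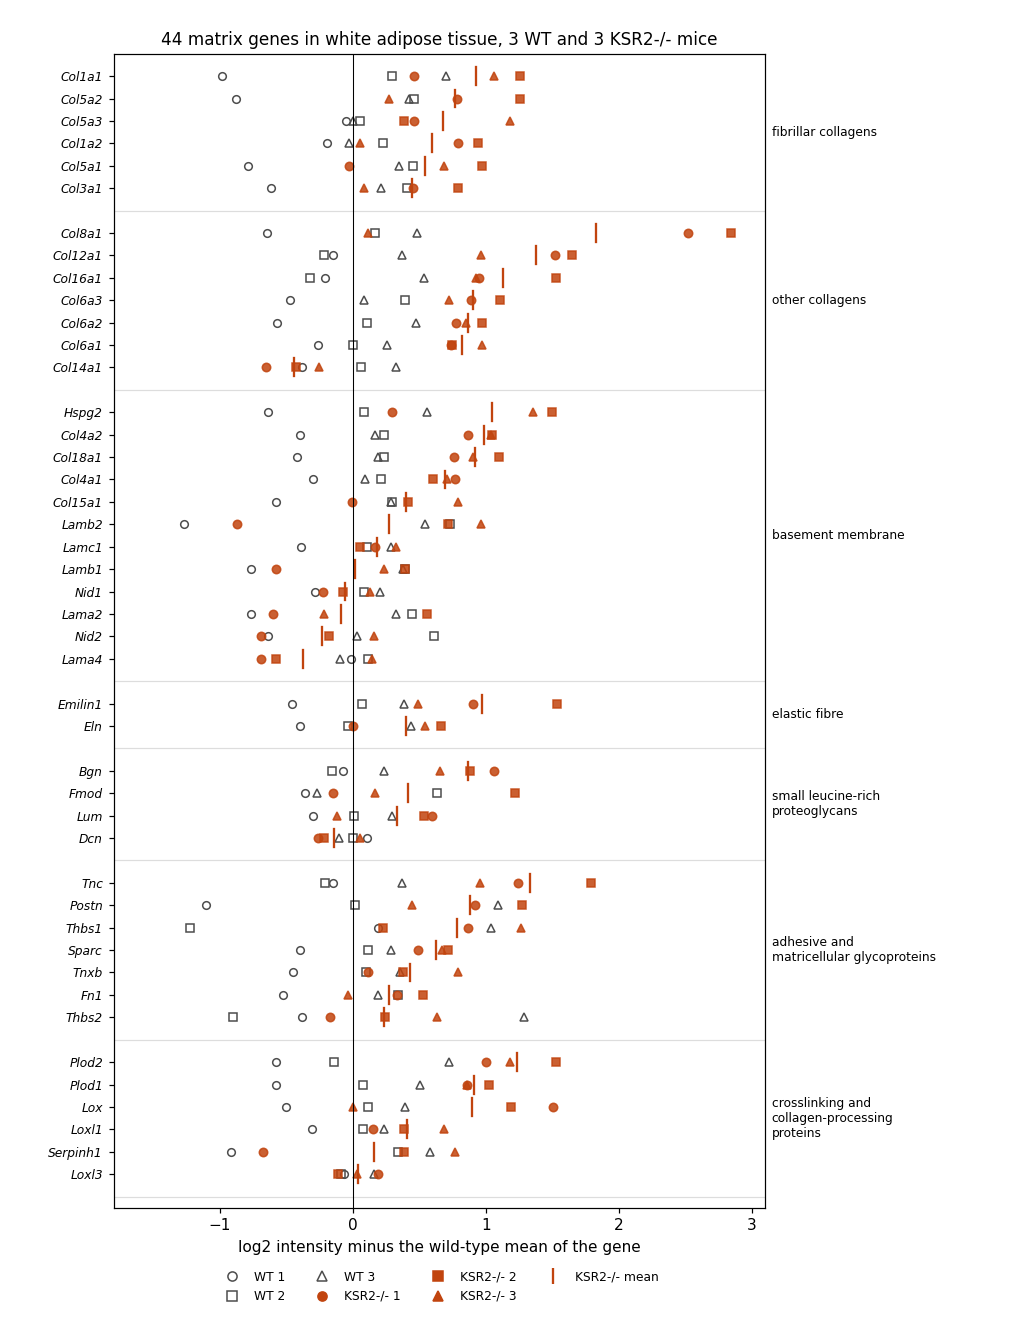
Each row is 1 of the 44 measured genes, grouped by role, and the horizontal axis gives log2 intensity minus the wild-type mean of that gene. Open grey symbols are the 3 wild-type arrays, filled orange symbols the 3 knockout arrays and vertical bars the knockout means, and knockout symbols lie to the right of every wild-type symbol in 15 rows.

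Some arrays stood apart in ways that touch these genes. Wild type 1 was the lowest of the 3 wild types in 35 of the 44 genes, against 53.1% of all genes, and the mean of the 44 genes there lay 0.68 below the mean of the other wild types. Fibroblast and progenitor markers were also low on it, by 0.87 in the mean of 7 measured markers. So was every other cell type list, by 0.20 (macrophage) to 2.16 (skeletal muscle) in the list mean. The animal numbers in the labels form an upper series (wild types and knockouts 1 and 2) and a lower pair (wild type 3 and knockout 3). The log2 difference between the 3' and 5' Gapdh control probe sets, which grows as RNA degrades, was 4.18 for wild type 3 and 0.07 to 1.46 on the other arrays. The mean of the 6 skeletal muscle markers was 1.69 above the wild-type mean on wild type 3 and −0.01 on knockout 3, and that of the 7 mammary epithelial markers 0.96 and 0.32. The brightest marker of each list was high on both of these arrays, Acta1 at 9.42 and 9.95 against 7.08 to 7.74 elsewhere and Krt8 at 9.23 and 8.99 against 6.02 to 6.81. On knockout 3 every muscle marker other than Acta1 was below its wild-type mean, so the summed intensity of the muscle list there is mostly that of Acta1. The log2 summed intensity of the muscle list was 7.73 to 10.57 in wild type and 8.55 to 10.19 in knockout, and that of the mammary list 7.55 to 10.36 and 7.46 to 9.79. Fabp4, the brightest adipocyte marker, was at 13.66 to 13.90 in wild type and 13.66 to 13.81 in knockout. The adipocyte list was not uniform, with 2 of 6 measured markers higher and 4 lower. All 3 knockout arrays lay above all 3 wild types in 1 of them and below in 2, against 7.72% and 8.56% of all genes. The Ksr2 probe set read 4.74, 4.04 and 4.47 in wild type and 4.47, 4.28 and 4.26 in knockout (difference −0.08, SE 0.21, limma adjusted p = 0.935). Whether its probes lie in the deleted part is not known, so it does not check the labels.

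In this bulk tissue fewer cells of a type and less RNA per cell cannot be told apart. Macrophage markers were high on 2 of the 3 knockout arrays. Of 8 measured markers 7 were higher, against 44.4% of all genes, and 3 were higher without overlap, against 7.72%. The summed intensity of the list was 13.01 to 13.20 in wild type, 14.42 in knockout 1, 14.26 in knockout 2 and 13.20 in knockout 3. The 7 measured fibroblast and progenitor markers were divided, with 2 higher, 5 lower and a mean difference of −0.01. The higher ones were Pdgfrb (0.80, SE 0.47) and Thy1 (0.63, SE 0.30), both with overlapping groups, and the lower ones ranged from −0.44 to −0.16. Among the lower ones was Pdgfra (−0.41, SE 0.17), the 1 marker of the 7 whose groups did not overlap. Of all genes 8.56% had every knockout array below every wild-type array. Log2 summed intensities of the fibroblast list were 12.71 to 13.70 in wild type and 12.79 to 13.34 in knockout. Endothelial markers spanned 10.27 to 10.61 and 10.10 to 10.81, those of smooth muscle and pericytes 11.58 to 12.47 and 11.61 to 12.88, mesothelial markers 9.93 to 10.60 and 9.54 to 11.65, and adipocyte markers 15.27 to 15.52 and 14.84 to 15.58 in wild type and knockout. Knockout 3 differed from the other knockouts in more than the macrophage list. Relative to its wild-type mean, the mesothelial list mean was −0.55, −0.19 and 1.42 in knockouts 1, 2 and 3. That of smooth muscle and pericytes was −0.86, −0.53 and 0.49. The part of these cell types in the matrix differences was not tested.

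Before the values by role, the sequence next to the start of some of these genes is given for reference. RefSeq windows of GRCm38.p6 were found for 28 of the 44 genes, and the 250 bases before the most upstream start were searched on both strands for 4 motifs. These were the CCAAT box, the GC box spelled GGGCGG, the TATA box spelled here as TATAAA, and the site read by AP-1 factors downstream of ERK signalling, spelled TGANTCA. Each motif was counted on its own, whether or not it overlapped another. The CCAAT box was present in 9 of the 28 windows (32.1%, against 34.5% of 27025 genes) and the GC box in 15 (53.6%, against 33.0%). TATAAA was present in 4 (14.3%, against 13.0%) and TGANTCA in 2, those of Col6a1 and Tnxb (7.14%, against 6.85%). The number of CG pairs in a window had a median of 8 in the 28 genes and 6 in all genes. Col6a1, Bgn and Tnc are shown as genes among those with the smallest p that have a window before their start, and Col1a2 as a fibrillar collagen beside them. The choice did not follow p alone, since Col4a2 had a smaller p than Bgn and Col6a1, also has a window and is not shown. The windows lie at chr10:76726045-76726294 (Col6a1, minus strand), chrX:73483351-73483600 (Bgn, plus strand), chr4:64047016-64047265 (Tnc, minus strand) and chr6:4505368-4505617 (Col1a2, plus strand). Each run reads 5′ to 3′ on the strand of the gene, with matches to any of the 4 motifs in capitals.
Col6a1: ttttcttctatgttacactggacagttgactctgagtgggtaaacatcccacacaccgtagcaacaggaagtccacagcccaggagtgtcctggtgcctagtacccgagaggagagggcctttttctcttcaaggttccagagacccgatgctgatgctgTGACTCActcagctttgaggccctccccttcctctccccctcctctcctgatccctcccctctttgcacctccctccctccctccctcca
Bgn: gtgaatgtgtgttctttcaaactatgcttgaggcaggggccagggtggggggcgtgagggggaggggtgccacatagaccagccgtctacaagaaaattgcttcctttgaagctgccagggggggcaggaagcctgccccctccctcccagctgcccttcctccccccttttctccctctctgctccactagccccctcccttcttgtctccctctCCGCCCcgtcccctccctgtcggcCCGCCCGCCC
Tnc: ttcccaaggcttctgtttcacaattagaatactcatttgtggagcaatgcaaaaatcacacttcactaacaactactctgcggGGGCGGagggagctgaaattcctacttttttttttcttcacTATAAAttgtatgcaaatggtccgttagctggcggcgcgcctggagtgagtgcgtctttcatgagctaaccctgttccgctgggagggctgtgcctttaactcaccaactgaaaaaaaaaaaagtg
Col1a2: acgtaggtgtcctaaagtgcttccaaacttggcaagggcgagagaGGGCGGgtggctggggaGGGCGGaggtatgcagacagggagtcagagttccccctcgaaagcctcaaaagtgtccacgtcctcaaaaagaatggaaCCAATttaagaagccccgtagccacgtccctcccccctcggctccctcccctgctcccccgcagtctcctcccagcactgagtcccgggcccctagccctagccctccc
The capitals of Col6a1 are the TGANTCA match, at −90 to −84 from the start. Those of Bgn are 3 GC boxes on the minus strand, the nearest pair overlapping, and those of Tnc a GC box and TATAAA. Col1a2 holds 2 GC boxes and a CCAAT box at −109 to −105. A match describes these letters and is not evidence that a factor binds there.

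The 6 fibrillar collagen genes were all higher in knockout, by a median of 0.63 log2, but the arrays overlapped in 5 of them. Of all genes 7.72% had every knockout array above every wild-type array. Col1a1, the main chain of collagen I, measured 7.75, 9.03 and 9.44 in wild type and 9.20, 10.00 and 9.80 in knockout, a difference of 0.92 (SE 0.44, limma adjusted p = 0.473). Wild type 1 was far below the other wild types, and knockout 1 lay below wild type 3. Without wild type 1 the difference was 0.43. Col1a2, the partner chain, measured 11.21, 11.62 and 11.37 against 12.19, 12.34 and 11.45, with knockout 3 inside the wild-type range (difference 0.59, SE 0.26). Col3a1, the fibril collagen of soft tissue, differed by 0.44 (SE 0.31), Col5a1 by 0.54 (SE 0.40) and Col5a2 by 0.77 (SE 0.42), the collagen V chains that set fibril diameter. Dimmer probe sets read 0.80 (SE 0.30) for Col3a1 and 0.87 (SE 0.17) and 0.80 (SE 0.34) for Col5a1. With the mean of all probe sets Col1a1 gave 0.79, Col1a2 0.67, Col3a1 0.62, Col5a1 0.74 and Col5a2 0.73. The limma adjusted p of these means lay between 0.320 and 0.486.

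Col5a3, the least widespread collagen V chain, was the fibrillar collagen whose groups did not overlap. It measured 9.53, 9.63 and 9.58 in wild type and 10.04, 9.96 and 10.76 in knockout. Knockout 3 was the highest array, and the wild types lay close together (SD 0.05). The difference was 0.67 (SE 0.24, limma adjusted p = 0.329), 0.42 in the upper series and 1.18 in the lower pair, and 0.39 with the mean of both its probe sets. For the other 5 genes the lower pair gave smaller differences than the upper series, and Col3a1 (−0.12) and Col5a2 (−0.15) were lower in knockout 3 than in wild type 3. The median of the 6 genes was 0.79 in the upper series and 0.21 in the lower pair, and 0.38 without wild type 1.

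Non-fibrillar collagens outside the basement membrane separated in most genes. Of 7 genes 6 were higher, 6 at an unadjusted p under 0.05 and 5 without overlap, with a median of 0.90 log2. Of all genes 6.71% were higher at that p and 7.72% were higher without overlap. The 3 chains of collagen VI were alike. Col6a1 measured 9.98, 10.24 and 10.49 in wild type and 10.97, 10.98 and 11.21 in knockout, a difference of 0.82 (SE 0.19, limma adjusted p = 0.227), or 1.76-fold. Col6a2 measured 9.98, 10.66 and 11.03 against 11.33, 11.53 and 11.41, a difference of 0.86 (SE 0.27). Col6a3 measured 9.50, 10.36 and 10.06 against 10.86, 11.07 and 10.69, a difference of 0.90 (SE 0.25). Every knockout array was above every wild-type array for all 3 chains, whose differences were 0.87, 1.11 and 1.04 in the upper series and 0.71, 0.38 and 0.64 in the lower pair. With any 1 array left out they stayed between 0.58 and 1.10.

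Collagens that coat fibrils differed among themselves. Col12a1, which encodes a long fibril-associated collagen, measured 4.31, 4.25 and 4.84 in wild type and 5.98, 6.12 and 5.43 in knockout, a difference of 1.38 (SE 0.25, limma adjusted p = 0.194), or 2.60-fold. The groups did not overlap, but this gene and Tnc were the 2 of the 44 whose mean lay below the median of all gene means (5.96). The other 3 Col12a1 probe sets read 0.45, −0.13 and −0.10, and the mean of all 4 gave 0.40. Col16a1 measured 6.34, 6.23 and 7.09 against 7.50, 8.08 and 7.47, a difference of 1.13 (SE 0.29). Col14a1, a fibril-associated collagen of stromal cells, went the other way, with 9.13, 9.58 and 9.84 in wild type and 8.87, 9.09 and 9.26 in knockout (difference −0.45, SE 0.22, limma adjusted p = 0.498). It was lower in the upper series and in the lower pair alike (−0.38 and −0.58), although knockout 3 lay above wild type 1.

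Col8a1, which encodes a short-chain collagen of vessels and remodelling tissue, had the largest difference of the 44 genes and rested on 2 animals. It measured 5.16, 5.97 and 6.29 in wild type and 8.32, 8.65 and 5.91 in knockout, so that knockout 3 lay below wild types 2 and 3. The difference was 1.82 (SE 0.71, limma adjusted p = 0.378), 2.92 in the upper series and −0.37 in the lower pair. Without knockout 3, 3 of the 44 genes passed limma, Col8a1 (adjusted p = 0.0143), Col12a1 (0.0209) and Tnc (0.0360), where 4.49% of all genes passed. The highest adjusted p of these genes under any alternative tried was 0.828, 0.704 and 0.709. With the mean of all its probe sets the Col8a1 difference was 1.04. Macrophage markers were likewise high on knockouts 1 and 2, at 1.34 and 1.27 above the wild-type mean of their list, and at 0.15 on knockout 3, and their part in the Col8a1 values was not tested.

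The basement membrane genes fell into a collagen and perlecan part that was higher and a laminin and nidogen part that was not. As a whole the 12 genes had a median difference of 0.22, which turned to −0.11 without wild type 1. Of the 12 genes 8 were higher, 4 at an unadjusted p under 0.05 and 3 without overlap. Of all genes 44.4% were higher, 6.71% at that p and 7.72% without overlap. Col4a1 and Col4a2 encode the chains of the main collagen IV network, and their starts lie close together on opposite strands of chromosome 8. The RefSeq windows of 300 bases, from 250 before to 50 after each start, share 78 bases, while the 250 bases before each start share 0. Col4a1 measured 11.08, 11.59 and 11.47 in wild type and 12.15, 11.98 and 12.08 in knockout, a difference of 0.69 (SE 0.18, limma adjusted p = 0.248). Its dimmer second probe set read 0.32 (SE 0.21), and the mean of both gave 0.51. Col4a2 measured 9.61, 10.24 and 10.17 against 10.87, 11.06 and 11.04, a difference of 0.98 (SE 0.21, limma adjusted p = 0.210), or 1.98-fold. The knockout arrays lay close together (SD 0.08 and 0.10) and above all wild types, with differences of 0.61 and 0.87 in the lower pair and of 0.73 and 1.04 in the upper series.

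Col18a1, whose product carries heparan sulphate and releases endostatin, measured 7.89, 8.54 and 8.50 in wild type and 9.07, 9.41 and 9.21 in knockout, again without overlap (difference 0.92, SE 0.22, limma adjusted p = 0.240). Its relative Col15a1 measured 8.48, 9.35 and 9.34 against 9.05, 9.47 and 9.85, with overlapping groups (difference 0.40, SE 0.31). Hspg2, the perlecan gene, measured 7.29, 8.00 and 8.48 against 8.22, 9.42 and 9.27, a difference of 1.05 (SE 0.41, limma adjusted p = 0.380), with knockout 1 below wild type 3. The dimmer second probe set of Hspg2 read 0.37 (SE 0.22), and the mean of both gave 0.71. The median of these 5 genes was 0.92, and 0.71 to 1.04 with any 1 array left out. With the mean of all probe sets it was 0.71, beside 0.70 for the fibrillar collagens.

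Laminin and nidogen genes gave no such separation. Lamb1, the beta chain of the common laminins, measured 9.32, 10.48 and 10.47 in wild type and 9.51, 10.48 and 10.33 in knockout, a difference of 0.02 (SE 0.39, limma adjusted p = 0.996). The spread within each group (SD 0.66 and 0.52) was far wider than that. Its sign turned with each array centred on its median gene, at −0.023. Lamc1, the shared gamma chain, differed by 0.18 (SE 0.21), Lamb2 by 0.27 (SE 0.66) and Lama2 by −0.09 (SE 0.41). Lama4, the alpha chain of laminins around adipocytes and vessels, measured 9.78, 9.91 and 9.70 against 9.10, 9.22 and 9.94, where knockouts 1 and 2 lay below all wild types and knockout 3 above them (difference −0.38, SE 0.24, and −0.58 with the mean of both probe sets). Nid1 and Nid2, which link laminin to collagen IV, differed by −0.06 (SE 0.19) and −0.24 (SE 0.36). In these 7 genes 3 were higher and 4 lower, 0 passed limma at an unadjusted p under 0.05, and wild type 1 was the lowest wild type in 6. Of all genes 6.71% were higher and 5.38% lower at that p, and wild type 1 was the lowest in 53.1%.

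On each array the 2 parts of the basement membrane list could be set against each other, a division made after the values were seen and therefore not tested. Relative to its wild-type mean, the mean of collagens and perlecan minus that of laminins and nidogens was 0.13, −0.14 and 0.02 in wild type and 1.04, 0.81 and 0.71 in knockout. The knockout arrays lay above all wild types, wild type 1 included, since both parts were low on that array. The genes were divided with their differences known, so this separation is not support for the division. Fibrillar collagens minus the whole basement membrane list gave −0.05, 0.02 and 0.03 against 0.55, 0.47 and 0.01, so that knockout 3 fell within the wild-type range. The difference of the medians of fibrillar collagens and basement membrane genes was 0.41, and 0.70 without knockout 3. Fibrillar collagens minus the other 38 genes gave 0.11 in medians. In means per array the difference between knockout and wild type was 0.10, less than the spread of those means between arrays of a group (SD 0.16).

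**Figure D2:**
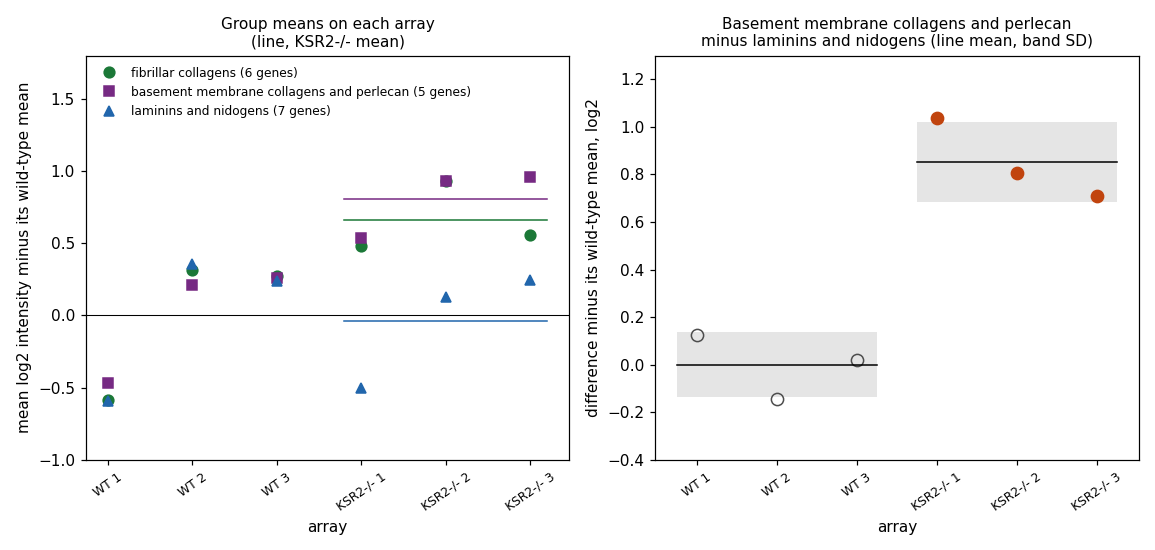
The left panel plots, for each of the 6 arrays, the mean log2 intensity of 3 gene groups minus the wild-type mean of the group, with horizontal lines at the knockout means. The right panel plots the mean of basement membrane collagens and perlecan minus that of laminins and nidogens on each array, relative to the wild-type mean, with lines for the group means and bands for the SD (n = 3), and the knockout arrays lie between 0.71 and 1.04 and the wild types between −0.14 and 0.13. This division of the basement membrane genes was made after the values were seen and was not tested.

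Elastic fibre genes were represented by Eln and Emilin1. Eln, the elastin gene, measured 7.14, 7.50 and 7.97 in wild type and 7.53, 8.19 and 8.08 in knockout, with overlap (difference 0.40, SE 0.27, and 0.20 with the mean of both probe sets). Emilin1, which encodes a glycoprotein at the surface of elastic fibres, measured 5.07, 5.59 and 5.91 against 6.42, 7.06 and 6.01, with knockout 3 just above wild type 3 (difference 0.97, SE 0.32, limma adjusted p = 0.314). A dimmer Emilin1 probe set read −0.12, and the mean of both gave 0.43.

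The small leucine-rich proteoglycans bind collagen fibrils, and of the 4 measured here biglycan stood apart. Bgn measured 10.34, 10.25 and 10.65 in wild type and 11.47, 11.29 and 11.07 in knockout, a difference of 0.86 (SE 0.19, limma adjusted p = 0.210) without overlap. Decorin (Dcn), the closest relative of biglycan, measured 13.10, 13.00 and 12.89 against 12.73, 12.78 and 13.05, a difference of −0.14 (SE 0.16). Lumican (Lum) measured 11.10, 11.41 and 11.69 against 11.99, 11.93 and 11.28, where knockouts 1 and 2 were above all wild types and knockout 3 among them. Fibromodulin (Fmod) differed by 0.41 (SE 0.42), with overlapping groups. The median of the 4 was 0.37, and 0.12 without knockout 2.

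Of the adhesive and matricellular glycoproteins, which sit on the matrix and act on cells, all 7 were higher, with a median of 0.62 that became 0.33 without wild type 1. Tnc, the tenascin C gene of remodelling matrix, measured 4.26, 4.20 and 4.78 in wild type and 5.65, 6.20 and 5.36 in knockout, a difference of 1.33 (SE 0.27, limma adjusted p = 0.197), or 2.51-fold. Its other probe set, which was dimmer, read 0.24, and the mean of both gave 0.78. Sparc, whose product chaperones collagen IV outside the cell, measured 11.85, 12.36 and 12.53 against 12.74, 12.96 and 12.91, a difference of 0.62 (SE 0.21, limma adjusted p = 0.319), or 0.36 with the mean of its probe sets. Neither gene overlapped between groups. Postn, the periostin gene, measured 8.91, 10.03 and 11.11 against 10.94, 11.29 and 10.46, so widely spread in wild type that the difference of 0.88 (SE 0.53) was within the spread. Fn1 (fibronectin, 0.27, SE 0.27), Tnxb (tenascin X, 0.43, SE 0.27), Thbs1 (0.79, SE 0.56) and Thbs2 (0.23, SE 0.54), the thrombospondin genes, also overlapped. Fn1, Postn and Thbs2 were lower in knockout 3 than in wild type 3, by −0.23, −0.64 and −0.65.

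Among the genes that modify and crosslink collagen, the lysyl hydroxylases separated at their brightest probe sets and the oxidases did not. Plod1 measured 6.63, 7.28 and 7.71 in wild type and 8.07, 8.23 and 8.06 in knockout, a difference of 0.91 (SE 0.28, limma adjusted p = 0.289). Plod2, the hydroxylase that acts on the lysines of collagen telopeptides, measured 4.92, 5.35 and 6.22 against 6.50, 7.02 and 6.68, a difference of 1.23 (SE 0.34, limma adjusted p = 0.261), or 2.35-fold. In both genes the knockout arrays were above all wild types. Their dimmer probe sets read 0.32 (SE 0.20) for Plod1 and 0.68 (SE 0.34) for Plod2, and the means of both probe sets gave 0.62 and 0.96. Lox, the founding lysyl oxidase, measured 8.34, 8.95 and 9.23 against 10.34, 10.03 and 8.84, a difference of 0.90 (SE 0.42, limma adjusted p = 0.465). Knockouts 1 and 2 were above and knockout 3 among the wild types, as for Col8a1. The dimmer probe sets of Lox read 1.00 (SE 0.40) and −0.01 (SE 0.18), and the mean of all its probe sets gave 0.63.

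Loxl1, the oxidase linked to elastic fibres, differed by 0.41 (SE 0.22), with overlap. Loxl3 differed by 0.03 (SE 0.16), and its sign turned to −0.0063 with each array centred on its median gene. Serpinh1, the collagen chaperone, measured 9.55, 10.81 and 11.05 in wild type and 9.79, 10.85 and 11.23 in knockout, a difference of 0.16 (SE 0.50), which became −0.30 without wild type 1. In this gene wild type 1 and knockout 1 were both low, as they were in Lama2, Lamb1 and Lamb2.

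In the lower pair 31 of the 44 genes were higher in knockout 3 than in wild type 3, against 40.4% of all genes, and 28 were higher in both, against 22.6%. The median difference was 0.73 in the upper series and 0.29 in the lower pair. The lower pair sets 1 array against 1, and wild type 3 had the Gapdh difference of 4.18 and the high muscle and mammary markers given above. The part of these in the lower pair was not tested. The 13 genes that were lower in knockout 3 than in wild type 3 included Col8a1, Lox, Postn, Lum and Fn1. Collagen VI and IV genes, Col18a1 and Hspg2 were higher in both. With a block for upper series and lower pair, 18 of the 44 genes were higher at an unadjusted limma p under 0.05 and 0 passed after adjustment. The share of all genes at that unadjusted p was not counted with the block.

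**Figure D3:**
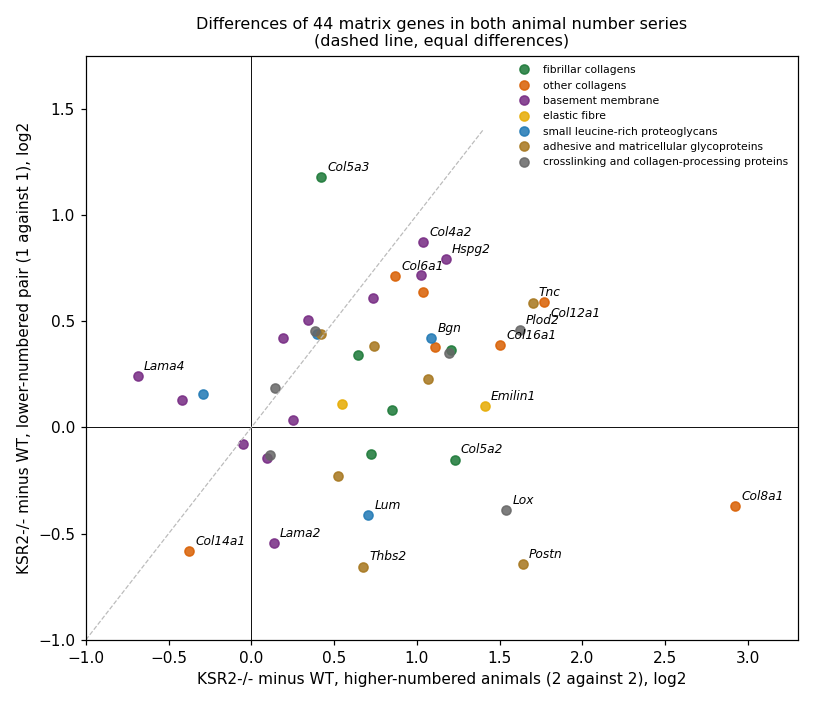
Each point is 1 of the 44 genes, coloured by role, with the log2 difference between knockout and wild type in the higher-numbered animals (upper series, 2 against 2) on the horizontal axis and in the lower-numbered animals (lower pair, 1 against 1) on the vertical axis. Points above the horizontal line, 31 in all, were higher in knockout 3 than in wild type 3, and Col8a1, Lox and Postn lie far to the right but below it.

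The median over all 44 genes depended most on wild type 1. The median of the 44 genes was 0.61 with all arrays, 0.33 without wild type 1 and 0.49 to 0.73 without any other, and 33 genes were then higher in place of 38. The genes at an unadjusted limma p under 0.05 and higher numbered 13 to 20 with 1 array left out. The share of all genes at that p was not counted in these fits, so these numbers have no background beside them. Collagen VI, collagen IV and Col18a1 kept differences of 0.54 or more in every such fit, whereas Col1a1 and Col5a2 had 0.43 and 0.33 without wild type 1.

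**Figure D4:**
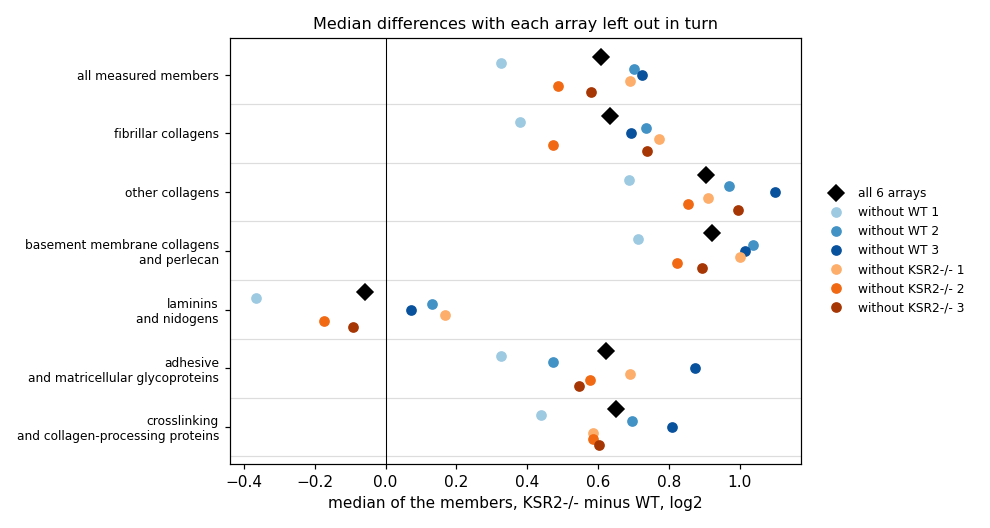
Points give the median log2 difference between knockout and wild type over the genes of a group, with all 6 arrays (black diamond) or with 1 array left out (circles, blue for wild types and orange for knockouts). Leaving out wild type 1 gives the lowest median in each group plotted, and the basement membrane collagens and perlecan stay between 0.71 and 1.04 while the laminins and nidogens lie on both sides of 0.

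Genes of the same pathway that are not among the 46 were read from the same fit. Of 24 measured genes of collagen maturation and turnover 20 were higher, with a median of 0.31, 5 at an unadjusted limma p under 0.05 and 0 after adjustment, where 44.4% of all genes were higher and 6.71% passed that p as higher. Mrc2, which encodes the receptor that takes up collagen fragments, measured 4.60, 5.75 and 5.96 in wild type and 7.62, 8.10 and 7.65 in knockout, a difference of 2.35 (SE 0.36, limma adjusted p = 0.174), or 5.11-fold. The lower pair gave 1.70 and the upper series 2.68, without overlap, and the mean of all its probe sets gave 1.52. Its wild-type mean of 5.44 lay below the median of all gene means (5.96), so it was named through its knockout values. Colgalt1, which glycosylates hydroxylysine, differed by 0.95 (SE 0.21) and P3h1, a prolyl hydroxylase, by 0.72 (SE 0.22). Ctsk, a collagen-degrading cathepsin that macrophages also make, measured 7.98, 7.99 and 8.01 against 11.01, 11.15 and 8.43, high on knockouts 1 and 2 as the macrophage markers were (difference 2.20, SE 0.68).

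Other structural matrix genes were close to balanced, with 23 of 39 higher, a median of 0.11, and 3 higher (7.69%, against 6.71% of all genes) and 1 lower (2.56%, against 5.38%) at an unadjusted limma p under 0.05. Fbln2, a basement membrane and elastic fibre protein, measured 7.64, 8.35 and 8.15 in wild type and 8.99, 9.19 and 8.98 in knockout (difference 1.01, SE 0.22, limma adjusted p = 0.210). Ogn, a small leucine-rich proteoglycan, was the lower one, at 10.67, 11.09 and 10.91 against 9.81, 10.31 and 10.20 (difference −0.79, SE 0.20, limma adjusted p = 0.248), without overlap. Prelp, another member of that family, differed by 0.94 (SE 0.44) and Ltbp2 by 0.92 (SE 0.39).

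Of 17 measured receptors for collagen and laminin 11 were higher, with a median of 0.21 and 4 at an unadjusted limma p under 0.05, against the same 44.4% and 6.71% of all genes. Itga7, a laminin-binding integrin chain, measured 7.33, 7.45 and 7.47 in wild type and 8.26, 8.28 and 9.02 in knockout, a difference of 1.10 (SE 0.23, limma adjusted p = 0.210) with knockout 3 the highest. The collagen receptor Lair1 of immune cells (1.41, SE 0.51) and the syndecan Sdc1 (1.84, SE 0.43) were high in knockouts 1 and 2, with 0.16 and 0.34 in the lower pair, and Sdc1 gave 1.17 with the mean of its probe sets. Sdc4 differed by 0.63 (SE 0.29). In these 3 lists 0 genes passed limma over all genes with all 6 arrays. Without knockout 3, where 4.49% of all genes passed, 5 did, Mrc2, Ctsk, Itga7, Sdc1 and Lair1. Under the alternatives tried the adjusted p of Mrc2 lay between 0.0349 and 0.685, of Ctsk between 0.0013 and 0.772 and of Itga7 between 0.0463 and 0.704, while Sdc1 had 0.0135 to 0.721 and Lair1 0.0087 to 0.781.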

How the data were processed

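The authors deposited linear intensity values. That they are RMA values comes from the submitters' processing notes, and that they are linear from their range, which reached 16422. No RMA version, aligner or build is given in the sources used here. RMA normalizes arrays together, so they are not independent at that step. Median intensities were 22.4 to 24.2. Log2 was taken, and each gene was read at the brightest of its single-gene probe sets (mean of 6 arrays), under symbols updated to RefSeq GRCm38.p6. The genotypes were compared by limma (version 3.58.1, R 4.3.3) with lmFit and eBayes (two-sided, Benjamini-Hochberg over 18193 genes, threshold 0.05). The number of arrays limits the precision. On simulated data of 18193 genes with the spread of this comparison, 24% of 2-fold and 70% of 4-fold changes were called, with 5 false calls.

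The members and lists were chosen with earlier results of these data known, so lists are given by counts and medians without a test. Genes named are all measured members, Ksr2, and of each list of other pathway genes the 4 with the smallest unadjusted p that reached the median of all gene means in at least 1 group mean. Mrc2 and Lair1 reached it in knockout only, so their naming depended on the group where they were high. Single cell type markers are named where they are the brightest of a list, and Pdgfra, Pdgfrb and Thy1 were named after their values were seen. Of the 44 members 32 had more than 1 probe set, and 8 of the 49 other probe sets had the opposite sign, 0 of them by more than 0.5. Protein sequences were not used here. Alternatives were a filter on dim genes, other probe set rules, renewed normalization, an added constant of 16, eBayes with trend, the number series as a block, the Gapdh difference as a covariate and each array left out. Leaving out both lower-numbered animals was added after the data were seen.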

Additional observations from a re-analysis of the deposited data

How the results depend on the processing

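No paired analysis was possible because the labels match no single wild type with a single knockout and the replicate numbers used here are in accession order. The block on the animal number series is not a pairing, since the upper series holds 2 animals of each genotype. Of the medians and counts recomputed under an alternative, 290 stayed within the spread between arrays or within 1.5 times a count and 37 did not. Over all genes the count past limma at an adjusted p of 0.05 was 12 with the filter on dim genes, 0 with every probe set fitted, 2 with quantile normalization repeated, 16 with arrays centred on the median gene, 0 with the constant of 16, 10 with trend, 0 with the series block, 6 with the Gapdh covariate, 487 without both lower-numbered animals and 0 to 816 with 1 array left out (816 without knockout 3). Members past it numbered 3 without both lower-numbered animals (Col8a1, Col12a1 and Tnc) and 0 to 3 with 1 array left out. Members lower at an unadjusted p under 0.05 numbered 1 with quantile normalization or centring (Col14a1), 1 without both lower-numbered animals (Lama4) and 0 to 1 with 1 array left out. Members without overlap numbered 29 without both lower-numbered animals and 15 to 23 with 1 array left out, where fewer arrays are compared and 20.3% and 9.78% to 14.5% of all genes did not overlap in that direction. Of the pathway genes outside the members, Mrc2 passed the adjusted p with centring, Mrc2, Ctsk, Itga7, Sdc1 and Lair1 without knockout 3, and Mrc2, Ctsk, Sdc1, Lair1 and Lamb3 without both lower-numbered animals. Receptor genes higher at an unadjusted limma p under 0.05 numbered 2 with the filter and 7 with the mean of all probe sets. Collagen maturation genes numbered 8 with the Gapdh covariate. Other structural genes numbered 5 with quantile normalization, centring, the series block or the covariate. Without both lower-numbered animals they numbered 8, and with 1 array left out 2 to 6. The share of all genes at an unadjusted p under 0.05 was not counted under the alternatives, so such counts have no background beside them. The median of fibrillar collagens minus other members was 0.29 with the mean of all probe sets and −0.058 to 0.18 with 1 array left out, that of fibrillar collagens minus basement membrane 0.26 to 0.70, and that of the small leucine-rich proteoglycans 0.12 to 0.55 (0.12 without knockout 2). Signs turned for genes with differences near 0. Lama2 was 0.066 with the Gapdh covariate, 0.14 without both lower-numbered animals and −0.48 to 0.17 with 1 array left out. Lamb1 was −0.027 with quantile normalization, −0.023 with centring and −0.37 to 0.32 with 1 array left out. Nid1 was 0.0074 with the covariate and −0.20 to 0.043 with 1 array left out. Loxl3 was −0.024 with quantile normalization, −0.0063 with centring and −0.043 to 0.11 with 1 array left out. Thbs2 was −0.050 with the mean of all probe sets and −0.22 to 0.87 with 1 array left out. The ranges with 1 array left out were −0.37 to 0.84 for Lamb2, −0.017 to 0.32 for Lamc1, −0.56 to 0.070 for Nid2 and −0.30 to 0.57 for Serpinh1. The cause was not tested.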
